A study of Danio rerio with 25 samples.

Results

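Endurance neuromuscular electrical stimulation (eNMES) was set against no stimulation in *dmd* mutant zebrafish, with the libraries split into 2 levels so that stimulated and unstimulated larvae were compared within a level. The comparison took 17 of the 24 libraries examined: 9 from *dmd* mutants that completed eNMES (replicates 2 to 10) and 8 from *dmd* mutant controls (replicates 1 to 8). All 17 were from *sapje* mutants (allele *dmd* ta222a), a line with a germline mutation, so that every cell of the larva carried it. Stimulated larvae had a session on each of days 2, 3 and 4 after fertilization, RNA was taken from whole larvae of both groups on day 7, and each library pooled 2 larvae that had been grouped by severity and by change in birefringence beforehand. The other 7 libraries were from WT siblings (3 with eNMES and 4 controls) and did not enter the fit. Level A held 5 eNMES libraries (replicates 2 to 6) and 5 controls (replicates 1 to 5). Level B held 4 eNMES libraries (replicates 7 to 10) and 3 controls (replicates 6 to 8).

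The levels were defined by measured values: libraries were grouped by the sign of component 1 of 40 circadian clock genes, which held 51.2% of their variance. Scores lay between -5.60 and -2.06 in level A and between 3.48 and 7.06 in level B, so the values nearest the dividing line on either side were -2.06 and 3.48. Because the clock genes set the levels, their values are given here as a description, with no p-value. They stayed in the fit across all genes, where 0 of them had an adjusted p under 0.1. Since these genes set the block, that count is no test of a clock change. Clock genes were left out where 1 level was read against the other. *PER2*, a light-responsive repressor of the clock, had 499 to 640 normalized counts in level A eNMES libraries, against 800.0 to 1160.3 in level A controls. In level B it had 1714 to 3608 in eNMES libraries, against 2137 to 3849.6 in controls. For *PER2* the treatments did not overlap in level A and overlapped in level B. Since *PER2* is among the genes that set the levels, this is no test of a treatment difference. How many of all genes lack overlap in level A was not counted. *PER2* had the lowest log2 fold change of the 40 clock genes in the blocked comparison (-0.54). Their median was 0.03, with 23 above 0 and 17 below. The labels give no date or time of collection, so what the levels stand for was not tested.

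Dystrophin links the actin skeleton of a muscle fibre to the extracellular matrix, and without it the membrane tears under load. Damaged fibres take up calcium, degenerate and are cleared by macrophages, while matrix is laid down around them. Electrical stimulation makes the muscle contract, and contraction is known to alter genes of calcium handling, oxygen supply, protein breakdown and matrix.

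Library totals lay between 7957160 estimated counts (eNMES replicate 8) and 22808348 counts, with medians of 18880002 in eNMES libraries and 17989600 in controls. The mutated gene itself had a median of 1172.5 normalized *dmd* counts in *dmd* mutants with eNMES (1008 to 1435) and 1204 in *dmd* mutant controls (1055 to 1324). WT siblings had medians of 4393 with eNMES and 3503 as controls, and their lowest library, at 2588, lay above every mutant. Markers of fast and slow muscle and of 10 other tissues were detected in all 17 libraries. In such bulk samples, fewer cells of a type and less RNA per cell cannot be told apart. After the level means were removed, the ratio of the spread between treatments to that within them on 2 principal components was 0.199 (exact permutation within levels, one-sided for a larger ratio, p = 0.0730, 8820 arrangements). Component 2 set eNMES replicate 2 of level A (-22.9) and eNMES replicate 8 of level B (-20.6) apart from the other 7 eNMES libraries, which lay between -0.84 and 16.6. Controls lay between -8.50 and 4.14 on the same component.

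**Figure D1:**
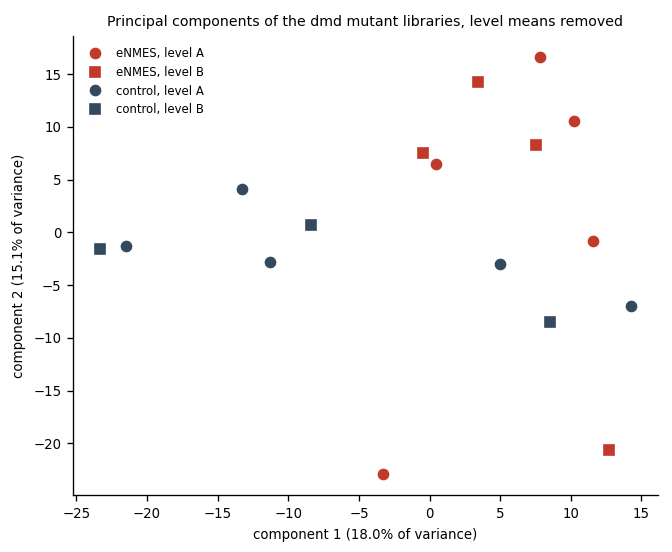
Scores of the 17 *dmd* mutant libraries on principal components 1 and 2 (18% and 15.1% of the variance) of the 500 most variable genes, after the mean of each level was removed; marker and color give treatment and level. On component 1 eNMES libraries lie between -3.30 and 12.7 and controls between -23.4 and 14.3, and eNMES libraries spread wider on component 2, where eNMES replicates 2 and 8 lie below all controls.

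Across both levels, 34 of 25832 genes tested (0.132%) differed between eNMES and control by more than 0.6 on the log2 scale at an adjusted p under 0.1, in edgeR's quasi-likelihood test with the level as a block. Of these, 16 (0.0619%) were higher and 18 (0.0697%) lower with eNMES. Without the minimum fold change, 55 genes (0.213%) were higher and 35 (0.135%) lower at the same adjusted p. At an unadjusted p under 0.05, 1525 genes (5.9%) were higher and 1281 (4.96%) lower. The fit without the block called 29 genes, all of them among the 34. The block added *pimr64*, *XKR9*, *si:dkey-27k4.4*, *ifi44f3* and *si:ch211-202h22.7*. Of the 34 genes, 11 kept an adjusted p under 0.1 whichever library was left out. Most called genes were weakly expressed: 20 of 34 had a mean under 50 normalized counts, and 27 had a symbol.

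The gene with the smallest p-value was ENSDARG00000099154, which has no symbol in the reference. In level A it had 214, 166, 205, 145 and 169 normalized counts in the eNMES libraries, against 341, 336, 341, 265 and 273 in the controls. In level B it had 183, 162, 211 and 215 with eNMES, against 294, 300.4 and 315 in the controls. Every eNMES library lay below every control. How many of all genes separate this way was not counted, here or for the genes described below. Genes picked for a small p in these libraries tend to separate in them, so a lack of overlap is no further evidence. ENSDARG00000099154 fell by 0.73 on the log2 scale (SE 0.0845, edgeR adjusted p = 0.000572). It was the only gene called within level A, where the log2 fold change was -0.79 (edgeR adjusted p = 0.0154), and it had -0.64 in level B. Leaving out any 1 library kept it called, with adjusted p-values of at most 0.00284. All 17 libraries gave it counts that were not whole, so its reads were shared with other transcripts by estimation.

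*MELTF*, *pih1d2* and *sfrp2l* were also called as lower with eNMES. *pih1d2* and *sfrp2l* had means under 50 normalized counts and are named here after their values were seen. *MELTF* encodes melanotransferrin, an iron-binding protein anchored to the cell surface and related to transferrin. Level A gave 560.5, 293, 363, 205 and 365 normalized counts of *MELTF* in eNMES libraries, against 699.7, 836, 730.2, 603 and 575 in controls. Level B gave 384, 413, 382 and 395 with eNMES, against 565, 674 and 624 in controls. The groups did not overlap in either level, and the 4 eNMES libraries of level B lay within a narrow band. *MELTF* fell by 0.83 on the log2 scale (SE 0.146, edgeR adjusted p = 0.0434), and the adjusted p stayed under 0.1 without any 1 library (highest 0.0978, without control replicate 7). *pih1d2*, from a family of PIH-domain proteins that help to assemble the dynein arms of cilia, had a median of 13.9 normalized counts (6.71 to 23.5) in eNMES libraries, against 38.8 (17.9 to 54.5) in controls. Treatments did not overlap in level A and overlapped in level B, where control replicate 6 had 17.9. It fell by 1.45 on the log2 scale (SE 0.228, edgeR adjusted p = 0.0270). *sfrp2l*, which belongs to the secreted frizzled-related proteins that bind Wnt ligands, had a median of 16.4 (9.48 to 28.5) with eNMES, against 54.1 (13.7 to 75.6) in controls, with overlap in both levels. *sfrp2l* fell by 1.39 on the log2 scale (SE 0.287, edgeR adjusted p = 0.0710), and it lost the call without any 1 of 9 libraries (adjusted p = 0.142 without control replicate 2).

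Both genes listed under the symbol *B3GNT3*, a family of enzymes that add N-acetylglucosamine to sugar chains of glycoproteins, were lower with eNMES. The copy ENSDARG00000093521 had a median of 7.37 normalized counts (4.17 to 25.6) in eNMES libraries, against 31.4 (22.3 to 53.5) in controls. In level B its 4 eNMES libraries had at most 7.37 and its 3 controls at least 22.3, while 1 eNMES library of level A, at 25.6, lay above the lowest control. This copy fell by 1.53 on the log2 scale (SE 0.271, edgeR adjusted p = 0.0301), with -1.19 in level A and -2.26 in level B. The difference between levels was -1.07 (SE 0.557, unadjusted p = 0.069 in edgeR). The copy ENSDARG00000043482 had a median of 49.8 (20.8 to 61.1) with eNMES, against 79.8 (51.6 to 89.8) in controls. It fell by 0.79 on the log2 scale (SE 0.178, edgeR adjusted p = 0.0872), and it lost the call without any 1 of 10 libraries (adjusted p = 0.173 without control replicate 8). Counts of the first copy were not whole in 10 libraries and those of the other in 5, so some reads were shared between genes.

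The genes higher with eNMES were led by ENSDARG00000086739, a predicted gene with no described role in the files. Level A gave 149, 168, 133, 223 and 221 normalized counts in eNMES libraries, against 117, 112, 85.7, 68.2 and 129 in controls. Level B gave 237, 164, 235 and 267 with eNMES, against 106, 152 and 132 in controls. No eNMES library fell within the range of the controls of its own level. ENSDARG00000086739 rose by 0.80 on the log2 scale (SE 0.136, edgeR adjusted p = 0.0301), with 0.80 in level A and 0.81 in level B. *cyp2aa4*, a cytochrome P450 of a family found in fish, had 62.3, 125, 115, 159 and 103 normalized counts in level A with eNMES, against 45.5, 7.18, 35.3, 37.6 and 23.8 in level A controls. In level B, *cyp2aa4* had 112, 77.5, 82.2 and 89.98 with eNMES, against 50.6, 28.3 and 55.7 in controls. Every eNMES library lay above every control. *cyp2aa4* rose by 1.55 on the log2 scale (SE 0.275, edgeR adjusted p = 0.0434), and the call was lost only without control replicate 7 (adjusted p = 0.104). Of the 57 cytochrome P450 genes on a list that held it, *cyp2aa4* was the only one to pass. At an unadjusted p under 0.05, 3 (5.26%, against 5.9% of all genes) were higher and 7 (12.3%, against 4.96%) lower. The list's median log2 fold change was 0.02.

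*prg4b* encodes a proteoglycan 4, the kind of secreted protein (lubricin) that lubricates joint and tissue surfaces. It had 1357, 1160.5, 919, 1813 and 1885 normalized counts in level A eNMES libraries, against 748, 863, 891, 765 and 996 in level A controls. Level B gave 1544, 1809, 1006 and 1521 with eNMES, against 919, 1017 and 1059 in controls. Overlap came from 1 eNMES library in each level, replicate 4 at 919 and replicate 9 at 1006. *prg4b* rose by 0.67 on the log2 scale (SE 0.143, edgeR adjusted p = 0.0926), with 0.74 in level A and 0.55 in level B. It sat near the threshold: without any 1 of 14 libraries the adjusted p was 0.1 or more, and it reached 0.173 without control replicate 2. Counts of *prg4b* were not whole in all 17 libraries.

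A further pair of predicted genes rose more than 2-fold. *si:ch211-103n10.5* had a median of 81.7 normalized counts (45.0 to 120.7) in eNMES libraries, against 36.3 (18.4 to 61.4) in controls, with overlap in both levels. It rose by 1.14 on the log2 scale (SE 0.215, edgeR adjusted p = 0.0444), and the call was lost only without control replicate 7 (adjusted p = 0.116). *si:ch211-226h7.8* had a median of 206 (130.0 to 295) with eNMES, against 81.1 (56.9 to 154) in controls. In level B the treatments did not overlap. It rose by 1.14 as well (SE 0.224, edgeR adjusted p = 0.0710), and 9 libraries each ended the call when left out (adjusted p = 0.146 without control replicate 2).

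**Figure D2:**
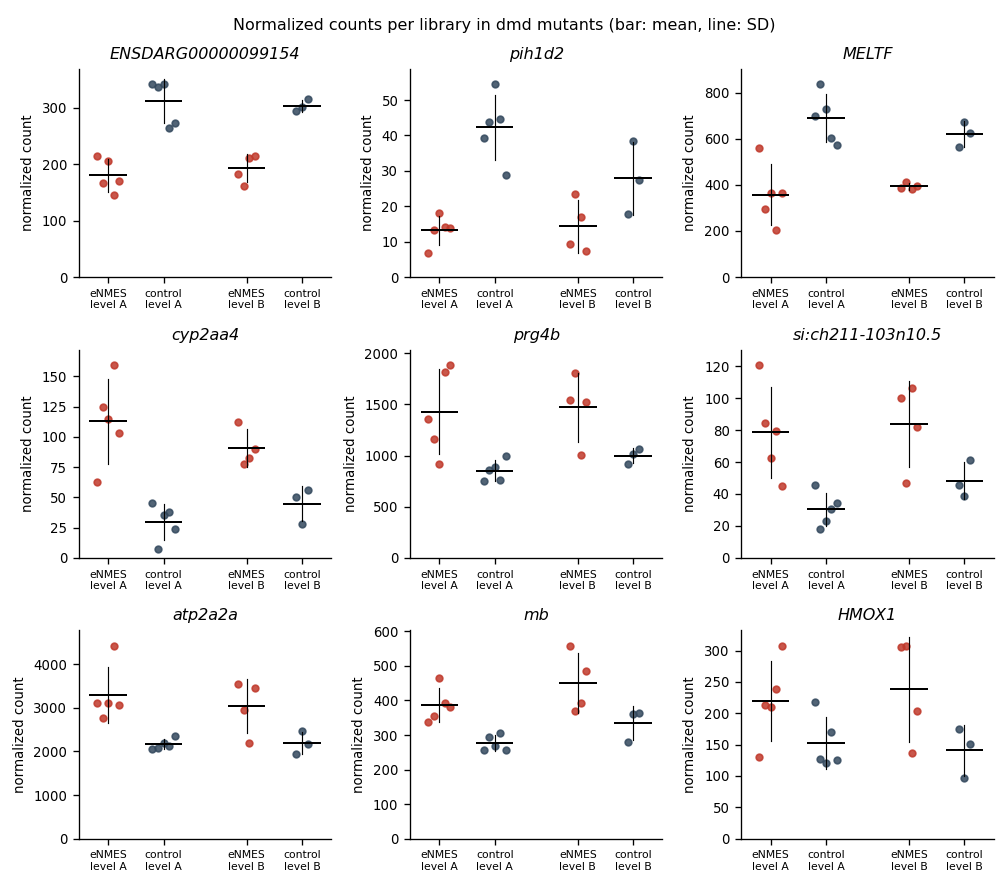
Normalized counts of 9 genes in each *dmd* mutant library (points), with the mean (bar) and SD (line) of eNMES and control libraries in level A (n = 5 and 5) and level B (n = 4 and 3); each vertical axis starts at 0. ENSDARG00000099154, *MELTF*, *cyp2aa4* and *mb* show no overlap between treatments within a level, while *prg4b*, *si:ch211-103n10.5* and *HMOX1* overlap in both. How many of all genes lack overlap was not counted.

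*NOS2*, *mhc2dab* and *ifi44f3* were called as higher at low counts, and they are named here after their values were seen. *NOS2*, the inducible nitric oxide synthase of activated macrophages, had a median of 16.4 normalized counts (5.27 to 51.5) in eNMES libraries, against 5.32 (2.11 to 11.1) in controls. *NOS2* rose by 1.81 on the log2 scale (SE 0.354, edgeR adjusted p = 0.0453), and it lost the call without eNMES replicate 5 or control replicate 2 (adjusted p = 0.112). *mhc2dab*, a class II antigen-presenting chain, had a median of 8.26 (1.92 to 25.3) with eNMES, against 2.25 (1.78 to 4.72) in controls. Its treatments overlapped in both levels, since eNMES replicates 2 (1.92) and 9 (2.11) had as few counts as controls. *mhc2dab* rose by 2.05 on the log2 scale (SE 0.437, edgeR adjusted p = 0.0710; 0.148 without control replicate 2). *ifi44f3*, of an interferon-induced family, had a median of 16.3 (8.54 to 28.1) with eNMES, against 9.45 (5.04 to 11.6) in controls, and a log2 fold change of 0.94 (SE 0.217, edgeR adjusted p = 0.0926; 0.186 without control replicate 7).

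*si:dkey-189n19.3* and *si:dkey-11n14.2*, both also named after their values were seen, were read almost only in controls. *si:dkey-189n19.3* had 0.958 normalized counts in eNMES replicate 2 and 0 in the other 8 eNMES libraries, against 30.3, 34.3, 26.2, 1.02 and 23.8 in level A controls and 44.3, 0 and 15.1 in level B controls. *si:dkey-11n14.2* had at most 1.04 in any eNMES library, and 6.24 or more in 6 of 8 controls. Both had controls at or near 0 too, namely control replicate 4 for each and control replicate 7. *si:dkey-189n19.3* was called at an adjusted p of 0.0270 and *si:dkey-11n14.2* at 0.0301 in edgeR, and *si:dkey-189n19.3* lost the call without eNMES replicate 2 (adjusted p = 0.168). No fold is given, since the eNMES libraries hold too few reads to set one. Whether the larvae differ in sequence at these genes was not tested.

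A further 56 genes passed the adjusted p of 0.1 with a smaller fold, 39 higher and 17 lower with eNMES. These were more strongly expressed, with a median of 526 normalized counts against 36.1 among the 34 called genes, and absolute log2 fold changes between 0.178 and 0.573. Genes named from this group were chosen after their values were seen, and 7 of the 56, *PPT1*, *klhl43*, *mb* and *atp2a2a* among them, kept an adjusted p under 0.1 whichever library was left out. Some muscle genes stood among the higher ones, and they do not stand for muscle genes as a whole. Muscle gene lists had median log2 fold changes of 0.01 (slow sarcomere), 0.02 (excitation-contraction coupling) and 0.05 (fast sarcomere). *mb* encodes myoglobin, which stores oxygen in muscle. *mb* had 337, 354, 465, 393 and 383 normalized counts in level A with eNMES, against 258, 293, 269, 307 and 256 in level A controls. In level B, *mb* had 558, 369, 391.9 and 486 with eNMES, against 279, 362 and 364 in controls. Treatments did not overlap in either level. *mb* rose by 0.46 on the log2 scale (SE 0.0854, edgeR adjusted p = 0.0385), with 0.48 in level A and 0.44 in level B, and no single library ended it (highest adjusted p 0.0783).

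*atp2a2a* encodes a calcium pump of the sarcoplasmic reticulum, the SERCA2 type known from slow and heart muscle. Level A gave 3100.4, 2759, 3117, 4419 and 3059 normalized counts of *atp2a2a* with eNMES, against 2058, 2088, 2192, 2134 and 2363 in controls. Level B gave 3536, 2946, 2198 and 3464 with eNMES, against 1951, 2459 and 2165 in controls. Treatments were apart in level A, and eNMES replicate 9, at 2198, lay within the level B controls. The log2 fold change was 0.55 (SE 0.0991, edgeR adjusted p = 0.0434), and it kept an adjusted p under 0.1 without any 1 library (highest 0.0946). *CACNG1*, a subunit of the voltage-gated calcium channel of muscle, had a median of 836 (740 to 926) with eNMES, against 653 (605 to 771) in controls. Its log2 fold change was 0.30 (SE 0.0584, edgeR adjusted p = 0.0444; 0.116 without control replicate 7). *klhl43*, of the kelch-like family, had a median of 4611 (3897 to 5012) with eNMES, against 3728 (3539 to 4038) in controls, and rose by 0.28 (SE 0.0498, edgeR adjusted p = 0.0301). *TXLNB*, a taxilin of muscle, rose by 0.22 (SE 0.0507, edgeR adjusted p = 0.0896; 0.175 without eNMES replicate 6).

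*PSMD4* was the proteasome gene that passed. *PSMD4*, the ubiquitin receptor of the proteasome, had 459.9, 523, 509.6, 629.6 and 466 normalized counts in level A with eNMES, against 409, 399.8, 392.4, 449.7 and 406 in level A controls. Level B gave 604, 547, 549 and 509 with eNMES, against 469.9, 497 and 483 in controls. Treatments did not overlap in either level. *PSMD4* rose by 0.28 on the log2 scale (SE 0.0612, edgeR adjusted p = 0.0797), and 12 libraries each ended the call when left out (adjusted p = 0.158 without control replicate 2). *PPT1*, a lysosomal enzyme that removes fatty acids from proteins, rose by 0.32 (adjusted p = 0.0301 in edgeR), *ctsla*, a lysosomal cathepsin L protease, by 0.24 (0.0940), *cln3*, a lysosomal membrane protein, by 0.28 (0.0884) and *ifi30a*, a thiol reductase, by 0.34 (0.0676). *usp24*, a deubiquitinase, rose by 0.38 (0.0444), and *calcoco2*, an autophagy receptor, by 0.32 (0.0797). Of these, *PPT1* alone kept an adjusted p under 0.1 whichever library was left out.

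A last group of genes, each of which lost the adjusted p of 0.1 without at least 1 library, lay in both directions. *IRS2*, an adaptor of the insulin receptor, rose by 0.32 (adjusted p = 0.0964 in edgeR) and *ARG2*, the mitochondrial arginase, by 0.32 (0.0713). *CBS*, which makes cystathionine from homocysteine, fell by 0.35 (0.0664). *ACAD11* and *ECH1*, both of fatty acid breakdown, fell by 0.49 (0.0797) and 0.32 (0.0710). *gnb3b*, a G protein subunit of cone photoreceptors, fell by 0.35 (0.0533). *si:dkey-7j14.5* fell by 0.30 (0.0674), while *si:dkey-7j14.6*, named from the same clone, rose by 0.37 (0.0866).

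The change within each level was read from 1 fit to all 17 libraries, in which both levels shared the estimate of spread. Fewer genes were called there than with the block. In level A, 1 gene (0.00387%) was called, with 3.29% of genes higher and 2.83% lower at an unadjusted p under 0.05. In level B, 0 genes (0%) were called by edgeR, with 3.37% higher and 3.18% lower at an unadjusted p under 0.05, 1693 genes in all. DESeq2 called 38 genes in level A and 19 in level B with the same model, and edgeR called 3 and 25 when each level was fitted by itself. For the difference of the eNMES change between levels, 0 genes (0%) were called by edgeR, 699 (2.71%) had an unadjusted p under 0.05, and DESeq2 called 0. Of the 34 genes called with the block, 34 had an unadjusted p under 0.05 in level A and 31 in level B; these levels make up the blocked estimate, so this count follows in part from the call.

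The levels share no library, so genes picked in 1 level could be read in the other, with a separate fit for each. Among 21482 genes with a mean of at least 10 normalized counts, clock genes left out, 62.5% had the same sign in both levels, and the log2 fold changes had a Pearson's r of 0.32 and a Spearman's rho of 0.32 across genes, which are not independent replicates. Of the 100 genes with the smallest p in level A, 91 had the same direction in level B, and 31 of these with an unadjusted p under 0.05. Among all 21482 genes that share, with the p-value read in level B, was 6.36%. Those 100 genes had a median absolute log2 fold change of 0.53 in level A, where they were picked, and a median of 0.25 in level B, signed by their level A direction. Genes that came back with an unadjusted p under 0.05 included *pih1d2*, *cyp2aa4*, *atp2a2a*, *mb*, *CACNG1* and *klhl43*. In the other direction, 91 of the 100 genes picked in level B had the same direction in level A, 29 of them with an unadjusted p under 0.05, and the medians were 0.61 in level B and 0.27 in level A. *MELTF*, *gnb3b*, *CBS*, *IRS2* and *TXNL1* were among these 29. *icn2*, which had the smallest p in level B, was not among them (unadjusted edgeR p = 0.425 in level A). Nor were the collagens *COL1A1*, *COL1A2* and *COL11A1*, also picked in level B (0.887, 0.607 and 0.223). The share of all genes with the same direction and an unadjusted p under 0.05 in level A was not computed. In the separate edgeR fit of level A, 1499 of 25832 genes had an unadjusted p under 0.05 in either direction.

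**Figure D3:**
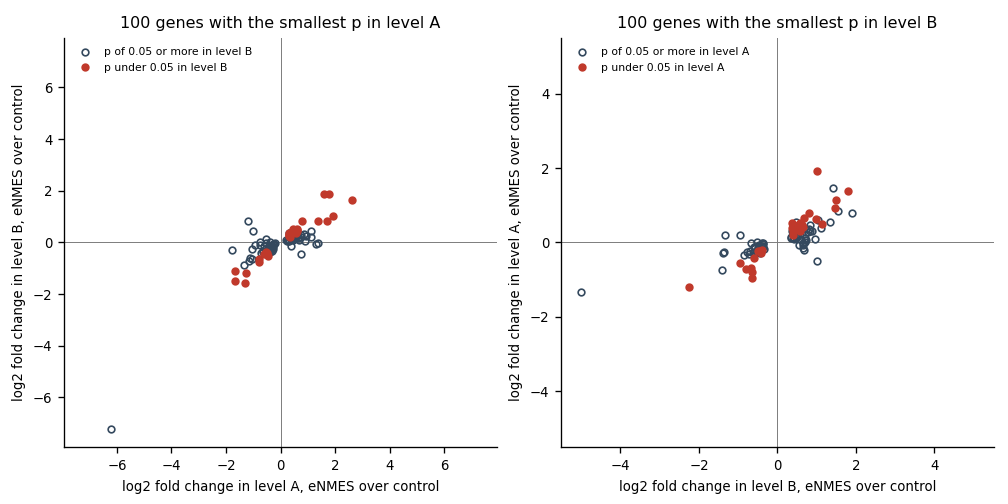
Log2 fold change (eNMES over control) of the 100 genes with the smallest p-value in 1 level, clock genes left out, on the horizontal axis, against the same gene in the other level, on the vertical axis, from separate fits; filled points had an unadjusted p under 0.05 in the other level. In each panel 91 of 100 genes have the same sign in both levels, and most lie nearer 0 in the level that did not pick them.

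Gene lists were described by the number of members that moved and by their median, beside a median of -0.00 over all genes tested in the blocked comparison and in each level. Members that were not called are named after their values were seen. Of 52 proteasome genes, 47 had a positive log2 fold change and 18 (34.6%) were higher at an unadjusted p under 0.05, against 5.9% of all genes, with 0 lower. *PSMD4* alone passed the adjusted p of 0.1. The median was 0.10 in the blocked comparison, 0.11 in level A and 0.11 in level B. *PSMB4*, a subunit of the catalytic core, had 0.25 (SE 0.0610, edgeR adjusted p = 0.114), and *PSMA5* 0.23 (SE 0.0675). The mean proteasome level of a library, on the log2 scale centred over the 17 libraries, lay between 0.11 and 0.18 in level B with eNMES, against -0.02 to 0.04 in level B controls. In level A it lay between -0.11 and 0.08 with eNMES, against -0.18 to 0.01 in controls.

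Of 41 genes of muscle atrophy and FOXO signalling, 33 had a positive log2 fold change, and none passed an adjusted p of 0.1. At an unadjusted p under 0.05, 14 (34.1%, against 5.9% of all genes) were higher and 1 (2.44%, against 4.96%) lower. The median was 0.15 (0.14 in level A and 0.19 in level B). *EIF4EBP3*, a repressor of translation, had a median of 2978 normalized counts (2270 to 3913) with eNMES, against 2379 (1923 to 2761) in controls. Its log2 fold change was 0.30 (SE 0.0715, edgeR adjusted p = 0.112). *PDK2* (ENSDARG00000059054), a kinase that switches off pyruvate dehydrogenase, had the largest value of the list, 0.94 (SE 0.242, edgeR adjusted p = 0.170), with 2716 counts (1674 to 4176) with eNMES, against 1439 (791 to 3029) in controls. *FBXO32*, the muscle ubiquitin ligase atrogin-1, had 0.39 (edgeR adjusted p = 0.290). Scores of the list also differed by level: every control of level A lay below every control of level B. They differed within level A too. Scores of eNMES replicates 2 and 3 and control replicates 1 to 3 lay between -0.39 and -0.15. Those of eNMES replicates 4 to 6 and control replicates 4 and 5 lay between -0.02 and 0.20. The block does not take up this division, and its part in the level A values was not tested. The list holds 2 genes that are also on the clock list.

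Matrix genes lay the other way. Of 41 collagen genes, 36 had a negative log2 fold change and 23 (56.1%) were lower at an unadjusted p under 0.05, against 4.96% of all genes. None passed an adjusted p of 0.1, and *COL8A1*, at 0.39, was the only one higher at an unadjusted p under 0.05. The median was -0.17, with -0.09 in level A and -0.26 in level B, and 1 gene was lower at an unadjusted p under 0.05 in level A (2.83% of all genes) against 22 in level B (3.18% of all genes). The difference between levels had an unadjusted p under 0.05 for 3 of the 41 and was called for none. *COL6A2*, a chain of the collagen that surrounds muscle fibres, had -0.22 (SE 0.0588, edgeR adjusted p = 0.151). *col9a3* and *COL11A2*, chains of cartilage collagens, had -0.41 and -0.37. The mean collagen level of a library lay between -0.26 and -0.06 in level B with eNMES, against 0.07 to 0.17 in controls, with no overlap. In level A it lay between -0.34 and 0.16 with eNMES, against -0.08 to 0.16 in controls, so the treatments overlapped. Lack of overlap in level B was not particular to collagens. It was also seen for proteasome, atrophy, macrophage, cartilage, integrin, oxidative phosphorylation, cholesterol synthesis and ribosomal protein genes, all scored in the same libraries.

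Cartilage and bone genes, 8 of which are also on the collagen list, had a median of -0.19 over 32 genes. At an unadjusted p under 0.05, 9 (28.1%) were lower and 0 higher, against 4.96% and 5.9% of all genes. *cnmd*, which encodes chondromodulin of cartilage, had a median of 525 normalized counts (400.0 to 648) with eNMES, against 674 (560.4 to 819.7) in controls, and a log2 fold change of -0.35 (SE 0.0885, edgeR adjusted p = 0.133). *SOX9*, a transcription factor of cartilage, had -0.26. The summed level of the cartilage and bone markers lay between 12730 and 14843 in level B with eNMES, against 17476 and 19182 in controls. In level A it lay between 11821 and 20007 with eNMES, against 14149 and 19590 in controls. These markers include *COL2A1*, itself a collagen, with means of 10016 (ENSDARG00000069093) and 5079 (ENSDARG00000011407) normalized counts, beside 1130 for *MATN1*. The sum is thus not separate from the collagen values. All of these markers were detected in every library, and their part in the collagen values was not tested. Of 66 matricellular and matrix glycoprotein genes, *prg4b* rose, 4 (6.06%, against 5.9% of all genes) were higher and 10 (15.2%, against 4.96%) lower at an unadjusted p under 0.05, and the median was -0.09. *vcanb*, a large matrix proteoglycan, had -0.47 (SE 0.113, edgeR adjusted p = 0.125), and *KERA*, keratocan of the cornea, -0.54 (SE 0.145, edgeR adjusted p = 0.183). *THBS4* (ENSDARG00000020072), a thrombospondin of muscle attachments, had 0.20 (SE 0.0490, edgeR adjusted p = 0.113).

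**Figure D4:**
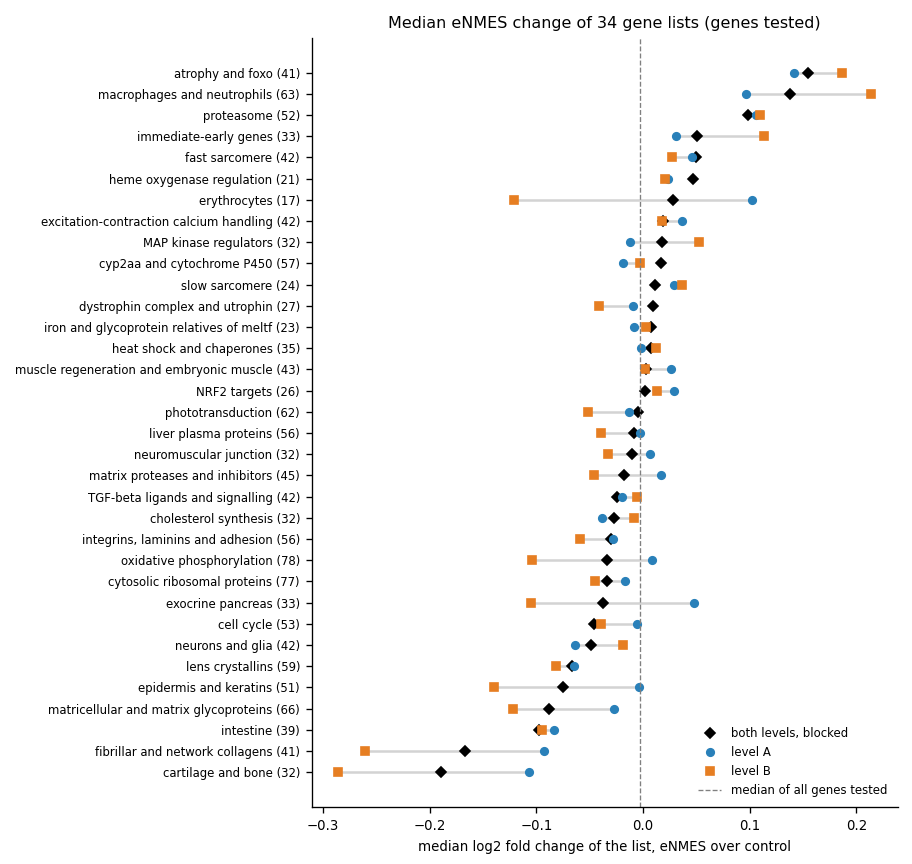
Median log2 fold change (eNMES over control) of 34 gene lists in the blocked comparison, in level A and in level B; the dashed line is the median of all genes tested, and the number of genes tested stands beside each list. Collagen and cartilage lists lie lowest, at -0.17 and -0.19 in the blocked comparison, and atrophy and macrophage lists highest, at 0.15 and 0.14.

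Macrophage and neutrophil genes had a median of 0.14 over 63 genes (0.10 in level A and 0.21 in level B). At an unadjusted p under 0.05, 12 (19%, against 5.9% of all genes) were higher and 2 (3.17%, against 4.96%) lower. In level A 7 were higher and 4 lower, against 3.29% and 2.83% of all genes. In level B 8 were higher and 0 lower, against 3.37% and 3.18%. Library scores of the list overlapped in level A, with -0.20 to 0.15 for eNMES, against -0.35 to 0.20 for controls. Of the 63 genes, 7 are also on the list of matricellular and matrix glycoproteins. Of the list, *tspan36* alone passed the adjusted p, with 0.28 (SE 0.0649, edgeR adjusted p = 0.0896). Whether its reads came from macrophages or neutrophils in these whole larvae was not tested. *MFAP4* stands for several genes on the same list: ENSDARG00000090557 had the list's highest value, 1.197 (SE 0.638, edgeR adjusted p = 0.531) at a mean of 529 normalized counts, and ENSDARG00000038683 had -1.01 (SE 0.391, edgeR adjusted p = 0.332) at a mean of 5.04. Summed macrophage and neutrophil markers lay between 1620 and 2467 in level B with eNMES, against 1272 and 1615 in controls, and between 1800.3 and 2916 in level A with eNMES, against 1286 and 2527 in controls.

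Other lists of muscle and stress had medians near that of all genes in the blocked comparison. Slow sarcomere genes had a median of 0.01 over 24 genes, with *mb* as the member that passed the adjusted p. Of the 24, 4 (16.7%, against 5.9% of all genes) were higher and 1 (4.17%, against 4.96%) lower at an unadjusted p under 0.05. Genes of excitation-contraction coupling had 0.02 over 42 genes, 27 above 0 and 15 below, of which *atp2a2a* and *CACNG1* passed. At an unadjusted p under 0.05, 7 of them (16.7%, against 5.9% of all genes) were higher and 1 (2.38%, against 4.96%) lower. Fast sarcomere genes had 0.05 over 42 genes, of which 31 were above 0 and 11 below. At the same unadjusted p, 5 (11.9%) were higher and 1 (2.38%) lower, against 5.9% and 4.96% of all genes. The dystrophin complex had 0.01 over 27 genes, none of them with an unadjusted p under 0.05. NRF2 targets had 0.00 over 26 genes, with 3 (11.5%) higher and 2 (7.69%) lower at an unadjusted p under 0.05. Immediate-early genes had 0.05 over 33 genes, with 0.03 in level A and 0.11 in level B, where 26 were above 0 and 7 below. None of these 33 had an unadjusted p under 0.05. Genes of neurons and glia had -0.05 over 42 genes, of which 35 were below 0. At an unadjusted p under 0.05, 10 of them (23.8%, against 4.96% of all genes) were lower and 2 higher, and none passed an adjusted p of 0.1. Oxidative phosphorylation had -0.03 over 78 genes, with 0.01 in level A and -0.10 in level B. At that p, 14 of the 78 were lower in level B (3.18% of all genes were) and 1 in level A (2.83% of all genes were), and 8 differed between levels (2.71% of all genes did), none past an adjusted p of 0.1.

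**Figure D5:**
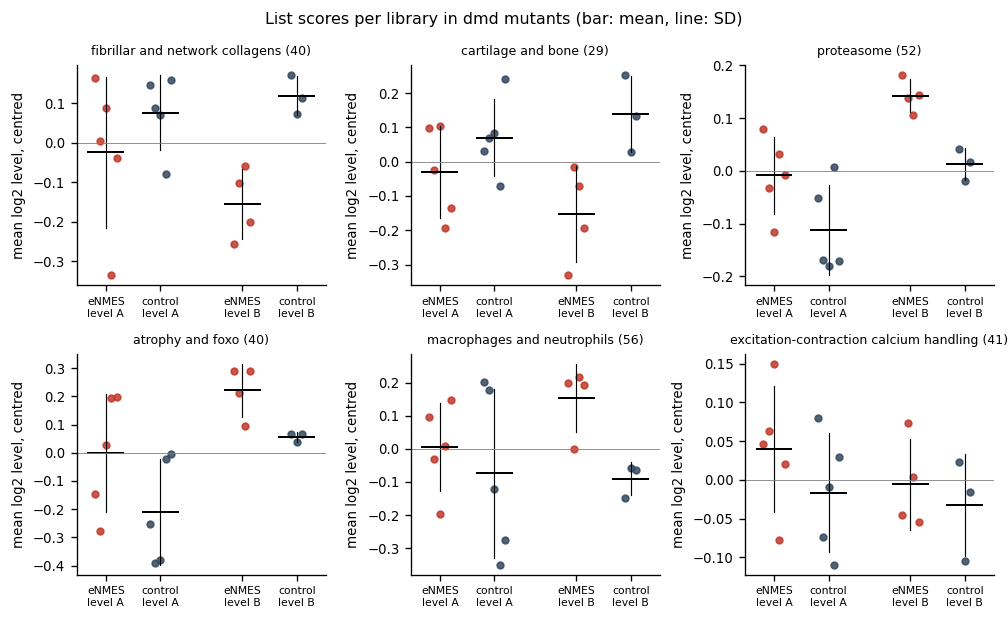
Mean log2 level of 6 gene lists in each *dmd* mutant library, centred over the 17 libraries, for eNMES and control libraries of levels A and B. Collagens lie lower and proteasome genes higher in every level B eNMES library than in any level B control, while the treatments overlap for both lists in level A. In level B the treatments also do not overlap for the cartilage, atrophy and macrophage lists, while in level A they overlap for each of these lists.

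4 names that the study takes up from its sequencing were read gene by gene, with an exact permutation test of log2 normalized counts, two-sided, in which treatment labels were permuted within levels. *HMOX1*, the enzyme that breaks down heme, had 130.3, 214, 209.7, 239 and 308 normalized counts in level A with eNMES, against 217, 128, 121, 171 and 126 in level A controls. Level B gave 306, 308, 136 and 203 of *HMOX1* with eNMES, against 175, 96.1 and 151 in controls. Most eNMES libraries were above most controls, with eNMES replicates 2 and 9 among the controls and control replicate 1 among the eNMES libraries. The log2 fold change was 0.61 (SE 0.202, edgeR adjusted p = 0.277), and the mean difference of 0.598 had an exact permutation p of 0.0175, or 0.0774 adjusted over the 8 genes tested. *POSTN* (ENSDARG00000043806), periostin of the matrix, had 644, 551, 647, 386 and 463 in level A with eNMES, against 637, 478, 636, 659 and 688 in level A controls. In level B, *POSTN* had 381, 484, 453 and 428 with eNMES, against 825, 499.7 and 547 in controls. The treatments did not overlap in level B and overlapped in level A. Its mean difference was -0.329 (exact permutation p = 0.0220, adjusted 0.0774; edgeR log2 fold change -0.33, SE 0.123, adjusted p = 0.327). In level B alone the exact permutation p was 0.0286, the smallest that 35 arrangements allow, and in level A 0.214. The other *POSTN* copy (ENSDARG00000104267) had a difference of -0.178 (exact permutation p = 0.101).

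Of the 4 genes under the symbol *ITGB1*, integrin beta 1, ENSDARG00000022689 had a median of 324 normalized counts (93.8 to 583) with eNMES, against 521 (329 to 688) in controls. Treatments overlapped in both levels, and the lowest value was that of eNMES replicate 9. The difference was -0.755 (exact permutation p = 0.0290, adjusted 0.0774; edgeR log2 fold change -0.64, SE 0.292, adjusted p = 0.448). All 17 libraries gave counts that were not whole. The other 3 genes had differences between -0.126 and 0.014. *TGFBI*, a matrix protein that binds integrins, had a median of 2931 (2025 to 3515) with eNMES, against 3153 (2769 to 3450) in controls, with a difference of -0.135 (exact permutation p = 0.175, adjusted 0.233). In level B the 4 eNMES libraries of *TGFBI* lay below the 3 controls, with a difference of -0.204 (exact permutation p = 0.0571), and in level A it was -0.086 (exact permutation p = 0.714). At an adjusted p of 0.1, *HMOX1*, *POSTN* (ENSDARG00000043806) and *ITGB1* (ENSDARG00000022689) passed the permutation test over these 8 genes. None of the 8 passed edgeR's test over all genes in the main fit. *HMOX1* was called over all genes in 1 of the 25 alternatives described below. It was not called when a library was left out (edgeR adjusted p of at least 0.136). The study took these names from sequencing of the same series. The adjustment over 8 genes leaves out that choice, so passing it is no independent evidence of a change.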

How the data were processed

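PolyA+ RNA of whole larvae was sequenced and, per the submitters' processing notes, trimmed with Trimmomatic 0.38.0 and quantified with RSEM 1.2.31 over Bowtie 1.1.2. The authors mapped to the Ensembl zebrafish transcriptome, and their RSEM run made the expected counts (estimated counts) per gene that they deposited without scaling. Reads that fit several genes are shared by estimation, so between 32.6% and 45.3% of the genes with a count in a library were not whole. Counts were rounded.

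Genes with at least 10 counts over all 24 libraries were tested with edgeR 4.0.16 in R 4.3.3 (TMM, robust quasi-likelihood, level plus treatment), and p-values were adjusted by Benjamini-Hochberg over all 25832 genes. Normalized counts are scaled to the mean library size. The biological coefficient of variation was 0.143. The labels do not say that libraries came from separate clutches, so p-values measure the spread between these libraries. The lowest chi-square per gene between any 2 of the 17 libraries was 6.20, so none was a repeat. Procedures were tested on simulated data.

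The members and gene lists were chosen with earlier results of these data known. Named were called genes that have a symbol and average 50 or more normalized counts, genes that only the blocked fit called, and members of lists that were called or extreme. Also named were genes the study takes up, 5 genes known from earlier results, and others said to be named after their values were seen. Of called genes without a symbol, ENSDARG00000099154 was described. Not every gene that met these rules is described. Symbols come from a table of gene names. Alternatives were DESeq2 1.42.0, its size factors, other filters and thresholds, no block, the replicate number as a block, the clock component as a covariate, all 24 libraries, separate fits and each library left out. The eNMES library numbered 1 was not analysed here. A further gene is not reported here.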

Additional observations from a re-analysis of the deposited data

Results flagged for a closer look

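Of 206 groups of 4 to 10 libraries tested for a value far from the rest, 10 did so by Dixon's criterion, and chance gives about 1 in 20. Among genes lower with eNMES, *si:dkey-189n19.3* had 0.958 normalized counts in eNMES replicate 2 and 0 in the other eNMES libraries. Among genes higher with eNMES, *ifi30a* stood apart at 381 and *tspan36* at 1532, both in eNMES replicate 7, *TXNL1* at 2288 in eNMES replicate 5, *parp14rs3* at 236 in eNMES replicate 6 and *cln3* at 161 in eNMES replicate 9. Controls stood apart for *ptprja*, at 58.0 in control replicate 4, and for *XKR9*, at 52.7 in control replicate 5. *ITGB1* (ENSDARG00000071863) had 1348 in eNMES replicate 9, the library that was also lowest for the *ITGB1* gene ENSDARG00000022689. The library total of 7957160 counts in eNMES replicate 8 was far below the other eNMES libraries.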

How the results depend on the processing

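The 34 calls with the block became 94 in DESeq2 (58 higher and 36 lower, 32 shared with edgeR), 16 at an adjusted p of 0.05 and 90 with no minimum fold change (394 in DESeq2). This last count ran from 28 without control replicate 7 to 184 without eNMES replicate 2. With the size factors of DESeq2, filterByExpr, a minimum of 1 count, no block, the clock component and all 24 libraries the counts were 35, 36, 34, 29, 41 and 49. In level A the 1 call became 3 with all 24 libraries, 3 in a separate fit and 38 in DESeq2, and in level B the count of 0 became 1, 25 and 19. Leaving out each library gave 16 to 56 calls with the block, 0 to 5 in level A, 0 to 1 in level B and 0 to 1 for the difference between levels (1 without control replicate 4). The blocked count was 56 without eNMES replicate 2. It was 20, 17, 19 and 17 without eNMES replicates 3, 5, 6 and 7, and 16, 22, 18, 18 and 22 without control replicates 2, 3, 6, 7 and 8. With 2000 genes in place of 500, the separation ratio was 0.230 (exact permutation p = 0.0464). The replicate number as a block gave 42 calls, 17 of them shared. Numbers do not pair the libraries: same-numbered libraries had correlations of deviations between -0.130 and 0.239, and only numbers 4 and 7 correlated best with their own. Signs turned only for *ITGB1* ENSDARG00000071863 (0.0185 under the replicate block, -0.0597 to 0.00135 with a library left out) and ENSDARG00000104484 (-0.00391 to 0.0492 with a library left out). Over 25 alternatives for each of 102 genes, a call was lost in 775 instances and gained in 18, and 1754 stayed on their side of the threshold.

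Precision was set by the spread between libraries for genes with many reads. Under 50 normalized counts, where 20 of the 34 called genes lie, a few reads decide the fold. The median list values kept their sign in each alternative for collagens (-0.21 to -0.13), cartilage and bone (-0.22 to -0.13), proteasome (0.08 to 0.12), atrophy (0.13 to 0.18) and macrophages (0.10 to 0.17). Symbols shared by several genes, such as *B3GNT3*, *POSTN* and *ITGB1*, were told apart by identifier only. With 4 eNMES libraries against 3 controls, an exact test in level B cannot fall under 0.0286.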

Other observations

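Immediate-early genes, which are induced within minutes by stress or activity, varied between libraries of level A without regard to treatment. Their mean log2 level, centred over the 17 libraries, was -0.49, -0.60, 0.31, 0.33 and 0.59 in eNMES replicates 2 to 6, against 0.19, -0.31, -0.69, 0.39 and 0.45 in control replicates 1 to 5. Level B libraries lay between -0.04 and 0.15 with eNMES, against -0.30 and 0.04 in controls. None of the 33 genes had an unadjusted p under 0.05 for treatment. Atrophy and FOXO genes followed a like order within level A, with -0.15, -0.28, 0.03, 0.20 and 0.20 in eNMES replicates 2 to 6, against -0.25, -0.39, -0.38, -0.02 and -0.00 in control replicates 1 to 5. The labels give no handling batch that would divide these libraries, and what sets them apart was not tested.

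*il1b*, an early inflammatory cytokine on the macrophage and neutrophil list, had a log2 fold change of -1.28 (SE 0.787) in the blocked comparison, with an edgeR adjusted p of 0.601. Cholesterol synthesis had 7 of 32 genes lower and 0 higher at an unadjusted p under 0.05, against 4.96% and 5.9% of all genes, with a median of -0.03 and no gene past an adjusted p of 0.1.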
